A study of Mus musculus with 32 samples.

Results

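The comparison of common myeloid progenitors (CMPs) from interleukin-5 transgenic (IL5T) mice with CMPs from wild-type (WT) mice rests on 8 arrays of the 32 in the series, 5 of IL5T CMPs and 3 of WT CMPs, chosen by their sample titles. The series profiled myeloid progenitors of both genotypes and eosinophils of IL5T mice on Illumina MouseWG-6 bead arrays, to follow transcription along the eosinophil lineage when IL-5 is made constitutively. Both genotypes were on a BALB/c background and 7 to 12 weeks old, and each array held RNA pooled from several mice. In the IL5T mice a transgene under the CD2 promoter drives IL-5 in T cells. CMPs were sorted from bone marrow as cells without lineage markers or Sca-1, with c-Kit and CD34, and with low CD16/32. The lineage cocktail held antibodies to Gr1, on granulocytes, and to Ter119, on red cells, and IL-5 receptor alpha was not used in the CMP gate. IL5T CMP replicates 1 to 3 were on beadchip version 1.1, and IL5T CMP replicates 4 and 5 and all 3 WT CMPs were in a single run on version 2.0.

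CMPs are marrow progenitors that give rise to granulocyte-macrophage progenitors (GMPs) on one side and to the precursors of red cells and platelets on the other. The gate collects a mixed population in which some cells already transcribe genes of the erythroid or megakaryocyte programme and others those of granulocytes. IL-5 is the cytokine that most selectively drives the production of eosinophils. It binds a receptor made of IL-5 receptor alpha and the common beta chain, which IL-3 and GM-CSF share, and activates JAK2 and STAT5. In sorted pools such as these, fewer cells of a type and less RNA per cell cannot be told apart.

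The arrays detected between 9436 and 10929 probes above background at a detection p under 0.05. Kit was bright on all of them, at 13.02, 12.97, 13.04, 13.05 and 12.81 on the IL5T arrays and 13.12, 13.50 and 13.12 on the WT arrays, while Il5ra was detected on none. Array values of every gene are log2 intensities in replicate order, so that the first 3 IL5T values come from version 1.1. IL5T CMP replicate 4 and WT CMP replicate 2 stood apart in genes of mature granulocytes that the gate should remove: Ngp, a neutrophil granule protein, read 5.80, 5.46, 5.13, 10.56 and 5.08 on the IL5T arrays and 4.66, 10.09 and 5.32 on the WT arrays. Hba-a1, an alpha globin, read 4.95, 5.22, 5.16, 8.58 and 4.82 on the IL5T arrays and 5.91, 12.62 and 8.76 on the WT arrays, with WT CMP replicate 2 far above the rest. The array name of IL5T CMP replicate 2 holds the letters of a GMP although its label is CMP. Its values correlated at 0.990 to 0.991 with the other CMPs of version 1.1 and at no more than 0.980 with any GMP of that version. GMPs of version 2.0 were not compared, and results are also given without this array. The Y-linked gene Eif2s3y was detected on all 8 arrays, while Xist, transcribed from the inactive X chromosome, was above 9 on IL5T CMP replicates 1, 3 and 5 and WT CMP replicate 2 and under 6 on the others.

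Genes lower in IL5T than in WT CMPs included the erythroid genes Ermap, Car1, Epor and Rhag, the iron exporter Slc40a1 and the amino acid transporter Slc38a5. Slamf1 and Tek, both surface receptors of stem and early progenitor cells, were lower too. The genes with the largest rises were the eosinophil granule genes Ear3, Prg3 and Epx, followed by Cd28, the MHC class II gene H2-Eb1 and Azin2. Of the 24159 probes found on both beadchip versions, 167 were called at an adjusted p under 0.05 by limma (0.691%), of which 83 were higher (0.344%) and 84 lower (0.348%) in IL5T CMPs. Without IL5T CMP replicate 2, 170 probes were called, 154 of them among the 167. Differences are IL5T minus WT on the log2 scale with the term for beadchip version in the fit, with n = 5 and n = 3 arrays. That term is set only by the IL5T CMPs and IL5T GMPs, which lie on both versions, so version, run and any other difference between those pools cannot be told apart. The spread came from all 32 arrays, with 22 residual degrees of freedom. When only the 8 CMP arrays were fitted, 1 probe was called, that of Ermap. Of the 167, 163 had an unadjusted p under 0.05 there and all kept their sign, but they had been selected on these same arrays. Over all 24159 probes, 1430 had an unadjusted p under 0.05 in that limma fit, where 5% would be expected without any difference.

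With 1 probe for each gene, 120 of 15249 genes were called (0.787%). The 144 called probes with a single gene stood for 137 genes, 68 higher and 70 lower, with probes of Trbv13-2, a T cell receptor segment, called in both directions. The other 23 called probes have no single gene name, 13 higher and 10 lower. 5 called probes were detected on no CMP array. Within the version 2.0 run, where IL5T CMP replicates 4 and 5 were set against the 3 WT CMPs with no version term, 84 probes were called (0.348%), 46 higher (0.19%) and 38 lower (0.157%). All 167 had the same sign there, but the fits share these 5 arrays. A fit of those 5 arrays alone called 0 probes with limma, with 960 at an unadjusted p under 0.05. That is less than the 5% of all 24159 probes expected there without any difference. On the arrays as measured, the 5 IL5T values lay wholly above the 3 WT values for 45 of the 83 higher probes and wholly below for 74 of the 84 lower ones, against 6.83% of all probes not overlapping in either direction. Among the 5 arrays of the version 2.0 run the genotypes did not overlap for 83 of the 83 and 83 of the 84, against 17.8% of all probes. Since the probes were called from these same arrays, the counts are no separate check.

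**Figure D1:**
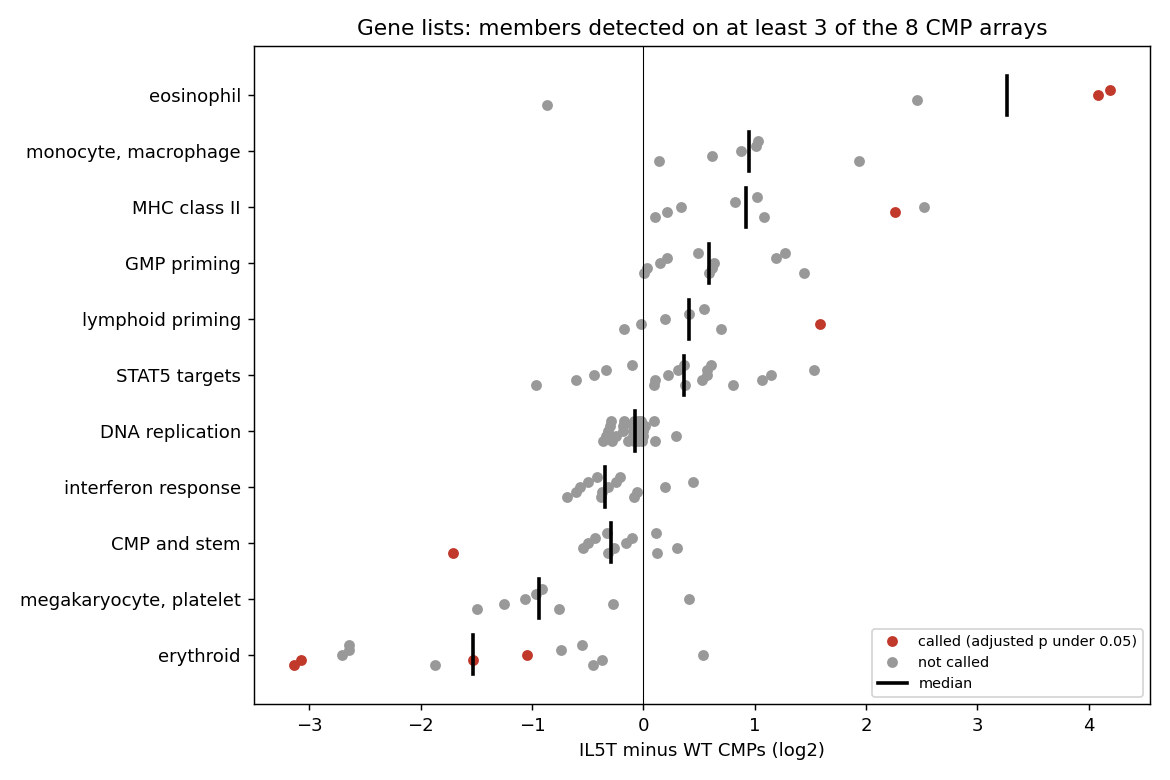
IL5T minus WT CMPs on the log2 scale (x axis) for members of 11 gene lists (y axis), each point being a gene detected on at least 3 of the 8 CMP arrays, red where called, with a bar at the median. The erythroid points lie at a median of -1.53 and the MHC class II points at 0.92.

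The erythroid list had the lowest median of the 36 lists. Of its 14 measured genes, 4 were called lower and 0 higher, against 0.387% of genes called lower over all 15249 genes, and the median difference of the 14 was -1.57 beside 0.00 over all genes. All 14 were detected on at least 1 CMP array. Their mean level was between 7.24 and 7.95 on the 5 IL5T arrays, on the version 2.0 scale, and between 8.71 and 9.52 on the 3 WT arrays. The groups did not overlap, which also held for other lists, among them DNA replication with a median of -0.07. The 4 genes called were Ermap, an erythroid membrane protein that carries a human blood group, Car1, the carbonic anhydrase of red cells, Epor, the erythropoietin receptor, and Rhag, a gas and ammonium channel of the Rh complex. This count fell to 1 when IL5T CMP replicate 4, WT CMP replicate 1 or WT CMP replicate 3 was left out, and to 2 without both IL5T CMP replicate 4 and WT CMP replicate 2. The median of the list was -0.91 without WT CMP replicate 2 and between -1.60 and -1.48 without any other single array.

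Promoters of 3 of these erythroid genes are shown because the data bear on their shared direction. They are RefSeq windows of GRCm38.p6 from 250 bases before to 50 bases after the gene's start, printed in the direction of the gene. Capitals mark matches of AGATAA, 1 form of the letters bound by GATA factors, and of CACCC, or their reverse complements. CACCC is found at sites of erythroid Krüppel-like factors. Epor lies on chr9:21963527-21963826 (minus strand), Ermap on chr4:119189946-119190245 (minus strand) and Rhag on chr17:40810899-40811198 (plus strand).
Epor: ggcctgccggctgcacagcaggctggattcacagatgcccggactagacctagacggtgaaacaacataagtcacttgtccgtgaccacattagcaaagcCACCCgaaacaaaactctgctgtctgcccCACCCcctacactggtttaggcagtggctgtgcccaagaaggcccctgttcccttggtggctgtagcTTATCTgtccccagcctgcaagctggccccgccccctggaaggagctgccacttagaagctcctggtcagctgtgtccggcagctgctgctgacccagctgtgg
Ermap: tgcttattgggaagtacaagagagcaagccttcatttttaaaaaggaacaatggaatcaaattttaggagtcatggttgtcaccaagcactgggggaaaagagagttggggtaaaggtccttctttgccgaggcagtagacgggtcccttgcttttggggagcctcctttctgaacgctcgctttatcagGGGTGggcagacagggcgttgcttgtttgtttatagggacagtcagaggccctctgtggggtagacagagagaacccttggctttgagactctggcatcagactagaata
Rhag: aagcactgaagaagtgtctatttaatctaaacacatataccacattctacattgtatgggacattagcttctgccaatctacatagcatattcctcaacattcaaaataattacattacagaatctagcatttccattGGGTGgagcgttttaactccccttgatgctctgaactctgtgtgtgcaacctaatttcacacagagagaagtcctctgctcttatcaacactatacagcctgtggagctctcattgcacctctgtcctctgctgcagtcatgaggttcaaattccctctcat
The Epor window held 1 match of AGATAA and 2 of CACCC, and the windows of Ermap and Rhag held 0 of AGATAA and 1 of CACCC each. Other forms of the GATA letters, such as TGATAA, were neither counted nor put in capitals. TTATCA, the reverse complement of TGATAA, stands in the windows of Ermap and Rhag. On both strands, AGATAA was found in 8 of the 57 lower genes that have a window in the reference (14%) and in 6 of the 53 higher ones (11.3%), beside 8.91% of the 12209 genes with a shared probe and a window. CACCC was found in 36 of 57 lower genes (63.2%), in 39 of 53 higher genes (73.6%) and in 60.6% of all, and TTCNNNGAA, the letters bound by STAT factors, in 6 of 57 (10.5%), 1 of 53 (1.89%) and 7.5%. The motifs do not overlap in their letters, they were chosen after the values had been seen, and a match is a description of the sequence.

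Ermap had the smallest adjusted p of the erythroid list and read 5.15, 5.08, 4.78, 5.47 and 4.96 on the IL5T arrays and 8.39, 8.23 and 8.22 on the WT arrays. All 5 IL5T values were at or near background, with 1 of 5 detected, and every WT value was far above them. The difference was -3.14 ± 0.28 (SE), adjusted p = 1.95e-07, and it was -3.06 within the version 2.0 run (adjusted p = 1.09e-05). Leaving out any 1 array did not end the call.

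Car1 read 9.35, 9.84, 8.14, 9.70 and 9.18 on the IL5T arrays and 12.70, 11.76 and 12.47 on the WT arrays. The IL5T arrays were all below the WT arrays, and the difference was -3.07 ± 0.69 (SE), adjusted p = 0.0268. Its call was lost without IL5T CMP replicate 4 or 5 or WT CMP replicate 1 or 3. Epor read 5.24, 5.68, 5.24, 5.94 and 6.86 on the IL5T arrays and 7.77, 7.20 and 8.06 on the WT arrays, again with no overlap, and differed by -1.53 ± 0.32 (SE), adjusted p = 0.0143, a call lost without IL5T CMP replicate 4 or WT CMP replicate 1 or 3. Rhag, named after its values were seen, read 5.08, 5.32, 5.02, 4.73 and 5.31 on the IL5T arrays and 5.90, 5.95 and 5.99 on the WT arrays. Only 1 of its 5 IL5T values was detected, while the WT values were all detected and higher. The difference was -1.05 ± 0.24 (SE), adjusted p = 0.0301, with the call lost without IL5T CMP replicate 4 or any 1 of the WT arrays.

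The other erythroid genes did not pass the test. Klf1, the Krüppel-like factor that drives the erythroid programme, differed by -1.87 ± 0.50 (SE), adjusted p = 0.0921, and Aqp1, a red cell water channel, by -2.65 ± 0.76 (SE), adjusted p = 0.141. The globin genes had large differences with larger errors, -2.65 ± 1.48 (SE), adjusted p = 0.825 for Hba-a1, where WT CMP replicate 2 alone reached 12.62. Gata1, the GATA factor of red cells and megakaryocytes, read 6.89, 8.37, 6.81, 6.46 and 7.70 on the IL5T arrays and 7.99, 7.36 and 7.98 on the WT arrays, groups that overlap, with a difference of -0.86 ± 0.31 (SE), adjusted p = 0.371. Gata2, the GATA factor of earlier progenitors, differed by -0.54 ± 0.18 (SE), adjusted p = 0.272. 

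Slc40a1, Tfr2 and Slc11a2, whose proteins handle iron, were called lower as well, and no list of iron genes was examined. Slc40a1, the iron exporter ferroportin, read 5.96, 6.30, 5.89, 7.72 and 6.43 on the IL5T arrays and 9.04, 8.57 and 9.17 on the WT arrays. WT values lay above all IL5T values, and the difference was -2.17 ± 0.35 (SE), adjusted p = 0.00139. Tfr2, transferrin receptor 2, which forms a complex with the erythropoietin receptor, read 6.92, 7.18, 6.66, 7.00 and 6.93 on the IL5T arrays and 8.00, 8.34 and 7.73 on the WT arrays, without overlap, and differed by -1.18 ± 0.25 (SE), adjusted p = 0.0174. Its call was lost without WT CMP replicate 1 or 2, and its other probe did not pass (-0.95, adjusted p = 0.134). Slc11a2, the importer that carries iron out of endosomes, was chosen after its values were seen and differed by -0.99 ± 0.20 (SE), adjusted p = 0.0127, a call lost without IL5T CMP replicate 4 or WT CMP replicate 1. The other probe of Slc11a2, detected on all 8 arrays, had a value of -0.09 (adjusted p = 1).

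**Figure D2:**
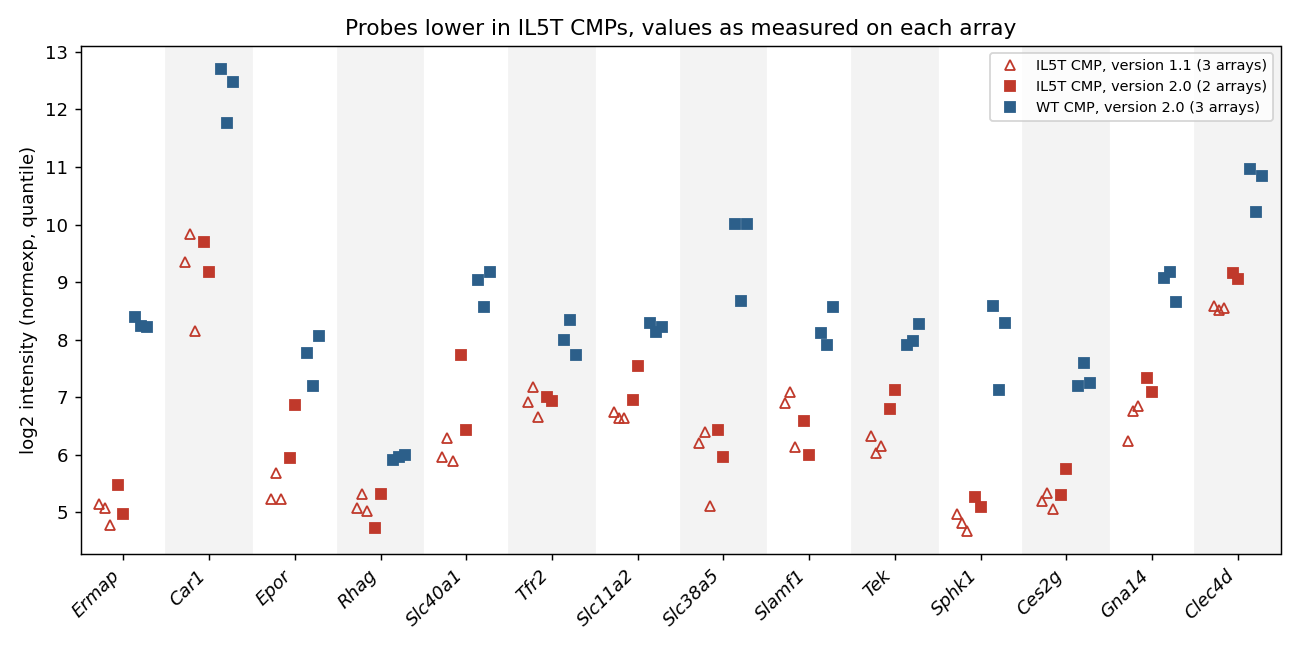
Log2 intensity (y axis) of 14 genes called lower in IL5T CMPs (x axis), as measured on each array, with open red triangles for IL5T CMPs on version 1.1, filled red squares for IL5T CMPs on version 2.0 and blue squares for WT CMPs. For Ermap the IL5T values lie between 4.78 and 5.47 and the WT values between 8.22 and 8.39.

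Slc38a5, Atp1b2 and Slc14a1, which encode membrane transport proteins, were also lower. Slc38a5, a glutamine transporter, had the lowest difference of all called genes and read 6.20, 6.40, 5.10, 6.44 and 5.95 on the IL5T arrays and 10.01, 8.68 and 10.00 on the WT arrays. The highest IL5T value was below the lowest WT value, and the difference was -3.44 ± 0.41 (SE), adjusted p = 3.10e-05. It was -3.37 within the version 2.0 run (adjusted p = 0.0168). Atp1b2, a beta subunit of the sodium-potassium pump, fell (-1.92 ± 0.31 (SE), adjusted p = 0.00162). Slc14a1, the urea transporter of red cells, was lower with both of its probes (differences of -0.97 and -0.88, adjusted p = 0.0093 and 0.00945), the second of which lost its call without IL5T CMP replicate 4.

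The list of CMP and stem cell genes had 16 measured members, of which 1 was called lower and 0 higher, with a median of -0.21. That gene, Slamf1, encodes CD150, a surface receptor used to mark stem cells and early megakaryocyte and erythroid progenitors. Its probe with the larger difference read 6.90, 7.08, 6.14, 6.58 and 6.00 on the IL5T arrays and 8.11, 7.90 and 8.57 on the WT arrays. All IL5T values were below all WT values, the difference was -1.71 ± 0.21 (SE), adjusted p = 3.33e-05, and a second Slamf1 probe was called as well, at -1.21 ± 0.19 (SE), adjusted p = 9.84e-04. Kit, the receptor for stem cell factor used in the gate, did not pass the test (-0.32 ± 0.19 (SE), adjusted p = 0.867). Meis1, a homeobox factor of stem cells, did not pass either (-0.43 ± 0.24 (SE), adjusted p = 0.802).

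Tek, Mst1r, Sphk1 and Gna14, which act at the membrane or in signalling, were lower. Tek, the receptor of angiopoietins found on stem cells, read 6.32, 6.02, 6.15, 6.79 and 7.13 on the IL5T arrays and 7.90, 7.97 and 8.26 on the WT arrays, without overlap, and differed by -1.22 ± 0.21 (SE), adjusted p = 0.00209. Mst1r, a receptor tyrosine kinase for macrophage-stimulating protein, was detected on 1 of 5 IL5T and 3 of 3 WT arrays and differed by -1.64 ± 0.20 (SE), adjusted p = 3.10e-05. Sphk1, a kinase that makes sphingosine 1-phosphate, read 4.96, 4.81, 4.68, 5.26 and 5.09 on the IL5T arrays and 8.58, 7.12 and 8.29 on the WT arrays with the probe called. That probe was detected on 0 of 5 IL5T arrays and on all WT arrays, and was at least 5.88-fold lower (adjusted p = 0.00498). This bound divides the mean WT signal by a floor averaged over the IL5T arrays, the floor of an array being the dimmest signal that counted as detected or, if brighter, the signal of the probe itself, with IL5T values on the version 2.0 scale after the version term, and the same was done with the genotypes exchanged. The other probe of Sphk1, detected on 3 IL5T arrays and 1 WT array, had a value of -0.09 (adjusted p = 1). Gna14, a G protein alpha subunit, fell by 1.74 on the log2 scale (SE 0.20, adjusted p = 1.92e-05).

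The other genes with large falls had varied roles. Ces2g, a carboxylesterase, read 5.20, 5.34, 5.06, 5.30 and 5.76 on the IL5T arrays and 7.19, 7.59 and 7.25 on the WT arrays, with no IL5T value near the WT values, and differed by -1.89 ± 0.17 (SE), adjusted p = 1.99e-07. Clec4d, a C-type lectin receptor of myeloid cells, differed by -1.58 ± 0.26 (SE), adjusted p = 0.00188. Of genes for the extracellular matrix, Col5a1, a collagen chain, differed by -2.56 ± 0.40 (SE), adjusted p = 0.00114 and Mmp14, a membrane-bound metalloprotease, by -1.88 ± 0.30 (SE), adjusted p = 0.00128. Zg16, a lectin-like protein first found in pancreatic granules, differed by -1.58 ± 0.28 (SE), adjusted p = 0.0027. Plscr1, a phospholipid scramblase, differed by -1.21 ± 0.22 (SE), adjusted p = 0.00361. Genes that were named after their values were seen included Aldh1a1, an enzyme of retinoic acid synthesis (-1.09 ± 0.20 (SE), adjusted p = 0.004), and Dlk1, a membrane protein of the Notch ligand family (-0.97 ± 0.15 (SE), adjusted p = 7.76e-04, with -0.54 and an adjusted p = 0.709 for its other probe). In the list of 31 measured lineage transcription factors, Gata3, a factor of T cells and early progenitors, was called lower (-0.71 ± 0.16 (SE), adjusted p = 0.0245), 0 were called higher and the median was 0.08. Its call was lost without IL5T CMP replicate 5 or WT CMP replicate 2 or 3.

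The megakaryocyte and platelet list had 0 called of 11 measured genes, with a median of -0.76, and 7 of its 8 members detected on at least 3 CMP arrays had a negative value. The mean level of its 10 members detected on at least 1 CMP array was 7.32 to 7.81 on the IL5T arrays, on the version 2.0 scale. It was 8.22 to 8.39 on the WT arrays. Pf4, platelet factor 4, had a difference of -1.50 ± 0.49 (SE), adjusted p = 0.26, Gp5, a platelet adhesion receptor, of -1.25 ± 0.40 (SE), adjusted p = 0.249, and Mmrn1, a platelet granule protein, of -0.97 ± 0.23 (SE), adjusted p = 0.0511. These genes did not pass the test although the list's levels did not overlap. Levels of other lists with 0 called genes did not overlap either. They were 6.52 to 6.62 on the IL5T and 6.16 to 6.37 on the WT arrays for type 2 and alarmin receptors. For DNA replication they were 10.495 to 10.678 and 10.684 to 10.689.

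**Figure D3:**
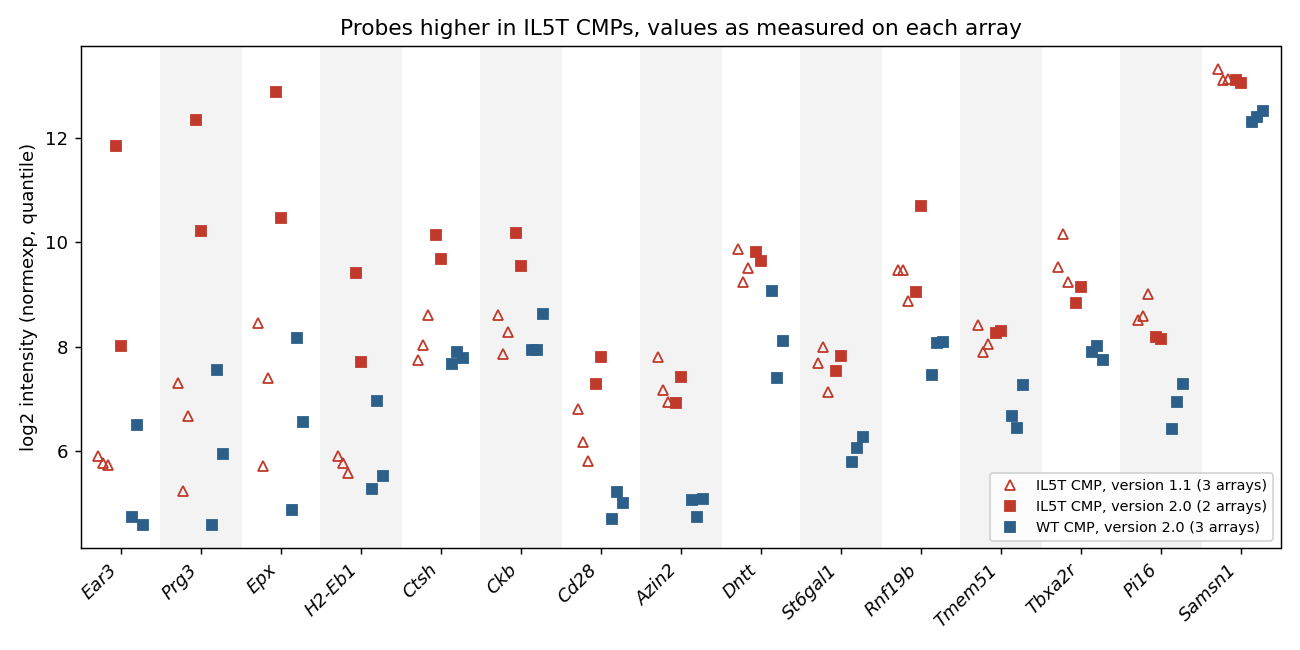
Log2 intensity (y axis) of 15 genes called higher in IL5T CMPs (x axis), as measured on each array, with open red triangles for IL5T CMPs on version 1.1, filled red squares for IL5T CMPs on version 2.0 and blue squares for WT CMPs. For Ear3 the filled red squares lie at 11.85 and 8.03, while the open triangles overlap the WT values.

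Eosinophil granule genes had the largest rises. Ear3, an eosinophil-associated ribonuclease, read 5.91, 5.77, 5.75, 11.85 and 8.03 on the IL5T arrays and 4.75, 6.51 and 4.58 on the WT arrays. The 2 IL5T arrays of version 2.0 were high, and the 3 of version 1.1 overlapped the WT values. With the version term, which was -4.30 for this probe, the difference was 4.76 ± 0.57 (SE), adjusted p = 3.10e-05. Within the version 2.0 run it was 4.66 (adjusted p = 0.0349). Ear genes are near-identical copies, and whether the probe also reads paralogs of Ear3 was not tested. This probe was detected on 1 WT array, and the other Ear3 probe, detected on all 8 arrays, did not pass (3.62 ± 0.88 (SE), adjusted p = 0.052).

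Prg3, a relative of eosinophil major basic protein, read 7.30, 5.24, 6.68, 12.34 and 10.22 on the IL5T arrays and 4.58, 7.57 and 5.95 on the WT arrays. Epx, eosinophil peroxidase, read 8.46, 5.71, 7.41, 12.87 and 10.48 on the IL5T arrays and 4.88, 8.18 and 6.56 on the WT arrays. For both genes IL5T CMP replicate 4 was the highest array, and the arrays as measured overlapped. The differences were 4.19 ± 0.76 (SE), adjusted p = 0.00427 for Prg3 and 4.09 ± 0.80 (SE), adjusted p = 0.00898 for Epx, with version effects of -3.11 and -2.73. Both calls were lost without IL5T CMP replicate 4 or without WT CMP replicate 1. Prg2, major basic protein itself, did not pass the test (2.46 ± 0.81 (SE), adjusted p = 0.272), and Siglecf, the lectin that marks eosinophils, was detected on no CMP array. Ccr3, the eotaxin receptor, was detected on IL5T CMP replicate 4 alone.

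Of the 9 measured genes of the eosinophil list, 2 were called higher and 0 lower, against 0.4% of genes called higher over all genes, with a median of 0.46. Leaving out 1 array gave between 0 and 3 higher calls, and a median of 0.08 without IL5T CMP replicate 4 and of 0.72 without IL5T CMP replicate 5. The mean level of its 7 members detected on at least 1 CMP array was 7.44 to 8.98 on the IL5T arrays, on the version 2.0 scale. It was 5.82 to 7.22 on the WT arrays, and IL5T CMP replicate 4 was the highest array. That scale raises Ear3, Prg3 and Epx on IL5T CMP replicates 1 to 3 by the version term. As measured, the genotypes overlapped for these genes, so the separation of the list levels rests on the term. Neutrophil secondary granule genes, such as Ngp, did not separate the genotypes, at mean levels of 5.54 to 8.54 and 5.18 to 8.31, with 0 of 11 genes called. IL5T CMP replicate 4 was the highest IL5T array for these too, and the part of mature granulocytes in the Prg3 and Epx results was not tested.

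H2-Eb1 and Ctsh were also higher. H2-Eb1, the beta chain of an MHC class II molecule, read 5.90, 5.79, 5.58, 9.41 and 7.72 on the IL5T arrays and 5.28, 6.97 and 5.53 on the WT arrays. IL5T CMP replicate 4 was far above the other arrays, and the difference of 2.26 ± 0.45 (SE), adjusted p = 0.00987 was no longer called without it, nor without WT CMP replicate 1 or 3. Cd74, the class II invariant chain, was at 2.52 ± 0.70 (SE), adjusted p = 0.119. Of the 11 measured genes of the MHC class II and costimulation list, 1 was called higher and 0 lower, with a median of 0.61, and all 8 members detected on at least 3 CMP arrays had a positive value. The median was 0.30 without IL5T CMP replicate 4. Ctsh, the lysosomal protease cathepsin H, read 7.75, 8.05, 8.61, 10.14 and 9.69 on the IL5T arrays and 7.67, 7.89 and 7.78 on the WT arrays, which overlap as measured. The difference was 1.68 ± 0.25 (SE), adjusted p = 7.00e-04 with a version effect of -1.02, and 2.13 within the version 2.0 run (adjusted p = 4.59e-05).

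Cd28, known as the costimulatory receptor of T cells, was higher with both probes. The first read 6.80, 6.18, 5.81, 7.28 and 7.81 on the IL5T arrays and 4.71, 5.21 and 5.01 on the WT arrays. No WT value was detected, every IL5T value was, and that probe was at least 4.71-fold higher on the version 2.0 scale (adjusted p = 1.05e-08). The second probe, detected on all IL5T arrays and 1 WT array, differed by 1.42 ± 0.26 (SE), adjusted p = 0.00422. Cd28 was the 1 gene called of 13 measured in the T and NK cell list, whose median was 0.00, and Cd3e, a defining T cell gene, was detected on no CMP array. The 5 members detected on at least 3 CMP arrays had a median of 0.59. The mean level of the 8 members detected on at least 1 CMP array, Cd28 among them, was 7.40 to 7.81 on the IL5T arrays, on the version 2.0 scale. It was 7.19 to 7.34 on the WT arrays, without overlap. Cd2, an adhesion receptor of T cells detected on 1 IL5T array, was called within the version 2.0 run (adjusted p = 0.0179) but not over all arrays (adjusted p = 0.708). The part of T cells in the Cd28 result was not tested. Azin2, an inhibitor of antizymes that regulates polyamine synthesis, read 7.81, 7.18, 6.94, 6.93 and 7.43 on the IL5T arrays and 5.06, 4.73 and 5.09 on the WT arrays, was detected on all IL5T and on 0 WT arrays, and was at least 3.42-fold higher (adjusted p = 1.51e-07). Both calls held without any 1 array.

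Further genes rose without overlap as measured. Dntt, the terminal transferase of early lymphoid cells, read 9.87, 9.25, 9.51, 9.81 and 9.64 on the IL5T arrays and 9.07, 7.41 and 8.12 on the WT arrays and differed by 1.58 ± 0.29 (SE), adjusted p = 0.00427. It was the 1 call among 9 measured genes of the lymphoid priming list, whose median was 0.27. St6gal1, a sialyltransferase of surface glycans, read 7.69, 8.00, 7.14, 7.55 and 7.83 on the IL5T arrays and 5.80, 6.07 and 6.28 on the WT arrays and differed by 1.56 ± 0.22 (SE), adjusted p = 3.47e-04. Rnf19b, an E3 ubiquitin ligase, differed by 1.71 ± 0.29 (SE), adjusted p = 0.00209 with 1 probe, while the other was not called (adjusted p = 0.0724), Tmem51, a membrane protein, by 1.41 ± 0.20 (SE), adjusted p = 2.84e-04, and Tbxa2r, the thromboxane receptor, by 1.21 ± 0.28 (SE), adjusted p = 0.0428 with the larger of its 2 called probes. The call of that Tbxa2r probe was lost without any 1 of 6 of the arrays.

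Regulators of transcription and the cell cycle were among the rises. Bhlhe40, a basic helix-loop-helix repressor, rose (1.35 ± 0.27 (SE), adjusted p = 0.0106), as did Klf5, a Krüppel-like factor (1.16 ± 0.24 (SE), adjusted p = 0.0139), and Hlx, a homeobox factor (1.11 ± 0.23 (SE), adjusted p = 0.0154), but each of these calls was lost without 1 or more single arrays. Ccnd1, cyclin D1, was called with 1 probe (1.33 ± 0.23 (SE), adjusted p = 0.00232), while a brighter probe did not pass (1.53, adjusted p = 0.0642). Some genes named after their values were seen were the only members of their lists called. These were Fosl2, an AP-1 subunit (0.76, adjusted p = 0.0428), among 22 immediate early genes, Rel, an NF-kappaB subunit, among 18 genes of Toll-like receptors and NF-kappaB, and Trib3, a pseudokinase of the ATF4 response (1.03, adjusted p = 0.0443), among 20 ATF4 and serine synthesis genes. Rel was detected on 3 of 5 IL5T arrays and on 0 WT arrays, and was called higher (adjusted p = 0.0301). The calls of Fosl2, Rel and Trib3 were each lost without 1 or more single arrays.

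The other rises included genes of immune and cytoskeletal function. Cfp, properdin of the complement system, differed by 1.08 ± 0.18 (SE), adjusted p = 0.002, and Sema4a, a semaphorin, by 1.34 ± 0.27 (SE), adjusted p = 0.0106. Dok3, an adaptor that restrains receptor signalling, differed by 0.97 ± 0.18 (SE), adjusted p = 0.00496, Samsn1, an adaptor of the same kind, by 0.69 ± 0.15 (SE), adjusted p = 0.019, Ncf4, a subunit of the phagocyte oxidase, by 0.66 ± 0.14 (SE), adjusted p = 0.0213, and Coro1a, an actin-binding coronin, by 0.62 ± 0.12 (SE), adjusted p = 0.00882. Vav1, an exchange factor for Rac, differed by 0.44 ± 0.10 (SE), adjusted p = 0.0494. Sema4a lost its call without IL5T CMP replicate 4 or WT CMP replicate 1. Dok3, Samsn1, Ncf4, Coro1a and Vav1 were named after their values were seen, and each lost its call without 1 or more single arrays. The other probes of Samsn1 (0.56 with adjusted p = 0.202, and 0.12 with adjusted p = 1) and Coro1a (0.26 with adjusted p = 0.643, and 0.42 with adjusted p = 0.66) did not pass.

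In the lists of the IL-5 pathway no gene was called by the probe that stood for it. The list of receptors and ligands of IL-5, IL-3 and GM-CSF had 0 called of 11 measured genes and a median of -0.06. Csf2rb, the common beta chain, read 5.08, 5.66, 5.64, 5.83 and 6.05 on the IL5T arrays and 5.39, 7.16 and 4.84 on the WT arrays, groups that overlap, and differed by 0.14 ± 0.35 (SE), adjusted p = 1. Il5 was detected on IL5T CMP replicates 4 and 5 only, at 5.72 and 6.72, and on 0 WT arrays. IL5T CMP replicates 1 to 3 were at 4.96, 4.91 and 4.86, undetected, and the WT arrays at 4.95, 5.19 and 4.98. The bound described for Sphk1 was 1.52-fold for Il5, but it takes in these undetected IL5T values after the version term of -0.85 raised them. Il5 did not pass the test (adjusted p = 0.715). Among 20 measured STAT5 targets and feedback genes 0 were called and the median was 0.34, although Ccnd1, a member, was called with its other probe. Cish, a STAT5-induced inhibitor of cytokine signalling, read 9.78, 9.80, 9.05, 9.70 and 9.94 on the IL5T arrays and 9.63, 8.71 and 9.77 on the WT arrays and differed by 0.57 ± 0.23 (SE), adjusted p = 0.525. Socs2, a second such inhibitor, read 7.59, 7.50, 6.72, 7.37 and 7.85 on the IL5T arrays and 8.52, 8.33 and 8.69 on the WT arrays, with every IL5T value below every WT value, and differed by -0.96 ± 0.25 (SE), adjusted p = 0.0689. In EoPs the differences were 2.24 (adjusted p = 4.59e-07) for Cish and 2.91 (adjusted p = 1.96e-08) for Socs2. The difference in CMPs minus that in EoPs was -1.67 (adjusted p = 0.00352) for Cish and -3.88 (adjusted p = 1.47e-07) for Socs2.

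The lists of GMP priming and of monocyte and macrophage genes had positive medians without calls. Neutrophil granule genes detected on at least 3 CMP arrays went both ways, with 5 positive and 1 negative in the primary list and 6 positive and 2 negative in the secondary list. S100a8, a neutrophil gene, was at -1.36 and not called. All 11 measured genes of the GMP priming list were positive, with a median of 0.59, and so were all 6 monocyte and macrophage genes detected on at least 3 CMP arrays, while 0 of 11 and 0 of 12 measured genes were called. Of all 7821 genes so detected, 3851 were positive. The median of the 12 measured monocyte and macrophage genes was 0.13, and -0.05 to 0.43 with 1 array left out. Without WT CMP replicate 3 the GMP priming median was 0.25, without WT CMP replicate 2 it was 0.99, and the mean level of the list overlapped between genotypes, at 8.89 to 9.68 on the IL5T arrays and 8.25 to 9.32 on the WT arrays. Cebpe, a factor of late granulocyte development, read 6.52, 7.02, 7.76, 9.36 and 7.92 on the IL5T arrays and 5.64, 7.48 and 6.55 on the WT arrays and differed by 1.45 ± 0.48 (SE), adjusted p = 0.273, and Cebpa, the factor that opens the granulocyte programme, by 0.15 ± 0.41 (SE), adjusted p = 1. In the interferon response list 0 of 20 measured genes were called, and 12 of 14 detected on at least 3 CMP arrays were negative. Outside that count, Ifi44l, an interferon-induced gene named after its values were seen, was called lower (-0.82, adjusted p = 0.0055). Its call was lost without WT CMP replicate 1. Oas3, also interferon-induced, was called lower with 1 probe (-0.39, adjusted p = 0.024), detected on 0 IL5T and 2 WT arrays. The other probe of Oas3, detected on no CMP array, did not pass. In the DNA replication list 0 of 34 were called, with a median of -0.07. Hk1, a hexokinase, was called lower among 16 genes of glycolysis and glucose transport (-1.08, adjusted p = 0.029, while its other probe had a value of -0.14 with adjusted p = 1), and Mvd, an enzyme of sterol synthesis, was called higher among 14 (0.81, adjusted p = 0.039), both lost without 1 or more single arrays.

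The remaining lists had 0 called genes. They were neutrophil primary granule, mast cell and basophil, B cell, dendritic cell, type 2 and alarmin receptors, BCL2 family, MHC class I and processing, heat shock, glucocorticoid targets, mitosis, ribosome biogenesis, oxidative phosphorylation, unfolded protein response, adhesion and homing, Fc receptors and surface inhibitors, and sex-linked genes.

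The beadchip term weighed unequally on the calls. It was below -1 for 17 of the 83 higher probes and 1 of the 84 lower probes, beside 590 of all 24159 probes, with medians of -0.27, -0.01 and -0.01. For 13 called probes the term was larger in size than the difference between genotypes. Since the term and the difference share IL5T CMP replicates 4 and 5, a high value on these arrays lowers the term and raises the difference. Ear3, Prg3, Epx, H2-Eb1 and Bhlhe40 had the term below -2, while that of Ermap was -0.09, that of Slc38a5 -0.17 and that of Azin2 0.23.

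**Figure D4:**
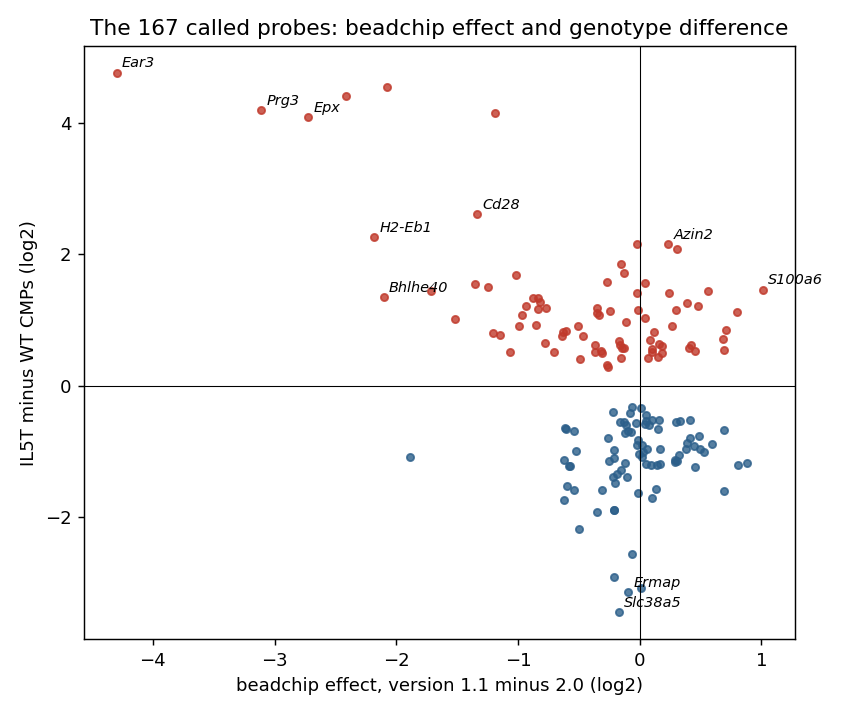
Beadchip effect, version 1.1 minus version 2.0 (x axis, log2), against IL5T minus WT CMPs (y axis, log2) for the 167 called probes, red where higher and blue where lower. Ear3, at -4.30 and 4.76, lies at the upper left, and most lower probes lie near 0 on the x axis.

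The same genotypes were compared in GMPs, which carry CD16/32 but not IL-5 receptor alpha, and in eosinophil precursors (EoPs), which carry both. 18 probes were called in GMPs (0.0745%) and 1764 in EoPs (7.3%). Of the 167 CMP probes, 8 were called in GMPs in the same direction and 0 in the opposite one, and 23 were called in EoPs in the same direction and 13 in the opposite one. The GMP comparison shares the version term with the CMP comparison, and all EoP arrays were on version 2.0. The test of the difference between populations called 23 probes for CMPs minus GMPs (0.0952%), all of them among the 167, and 835 for CMPs minus EoPs (3.46%), 81 of them among the 167.

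Eosinophil granule genes differed in GMPs as in CMPs but not detectably in EoPs. The difference of Ear3 was 6.75 (adjusted p = 1.55e-07) in GMPs and 0.23 (adjusted p = 0.911) in EoPs, and that of Epx was 5.75 (adjusted p = 0.00111) and -0.06 (adjusted p = 0.988). CMPs minus EoPs was 4.53 (adjusted p = 0.00142) for Ear3 and 4.14 (adjusted p = 0.0394) for Epx, while CMPs minus GMPs did not pass for either. CMPs minus GMPs was -2.43 (adjusted p = 0.00207) for Ermap, -2.19 (adjusted p = 0.0411) for Slc40a1 and -2.57 (adjusted p = 0.0411) for Slc38a5. It did not pass for the other called erythroid genes, Car1 (adjusted p = 1), Epor (adjusted p = 0.231) and Rhag (adjusted p = 0.474). The difference of Slc38a5 in EoPs was 0.86 (adjusted p = 0.239), opposite in sign to that in CMPs, and CMPs minus EoPs was -4.31 (adjusted p = 5.42e-05). Car1 was at -2.38 (adjusted p = 0.37) in GMPs and -3.28 (adjusted p = 0.00272) in EoPs.

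Slamf1 and Cd28 differed in CMPs and not detectably in the other progenitors. Slamf1 was at -0.10 (adjusted p = 1) in GMPs and 0.11 (adjusted p = 0.868) in EoPs, with CMPs minus GMPs at -1.62 (adjusted p = 0.00595) and CMPs minus EoPs at -1.83 (adjusted p = 4.58e-04). Cd28 was at 0.49 (adjusted p = 0.783) and 0.04 (adjusted p = 0.962), with fitted CMPs minus GMPs at 2.11 (adjusted p = 3.68e-05). Mst1r was at 1.02 (adjusted p = 0.00115) in EoPs, opposite in sign to CMPs. St6gal1 was at 1.17 (adjusted p = 0.00105) in EoPs and -0.10 (adjusted p = 1) in GMPs, and CMPs minus GMPs was 1.66 (adjusted p = 0.00826). Sema4a and Bhlhe40 had larger values in EoPs, at 2.49 (adjusted p = 6.96e-07) and 2.30 (adjusted p = 2.91e-06).

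**Figure D5:**
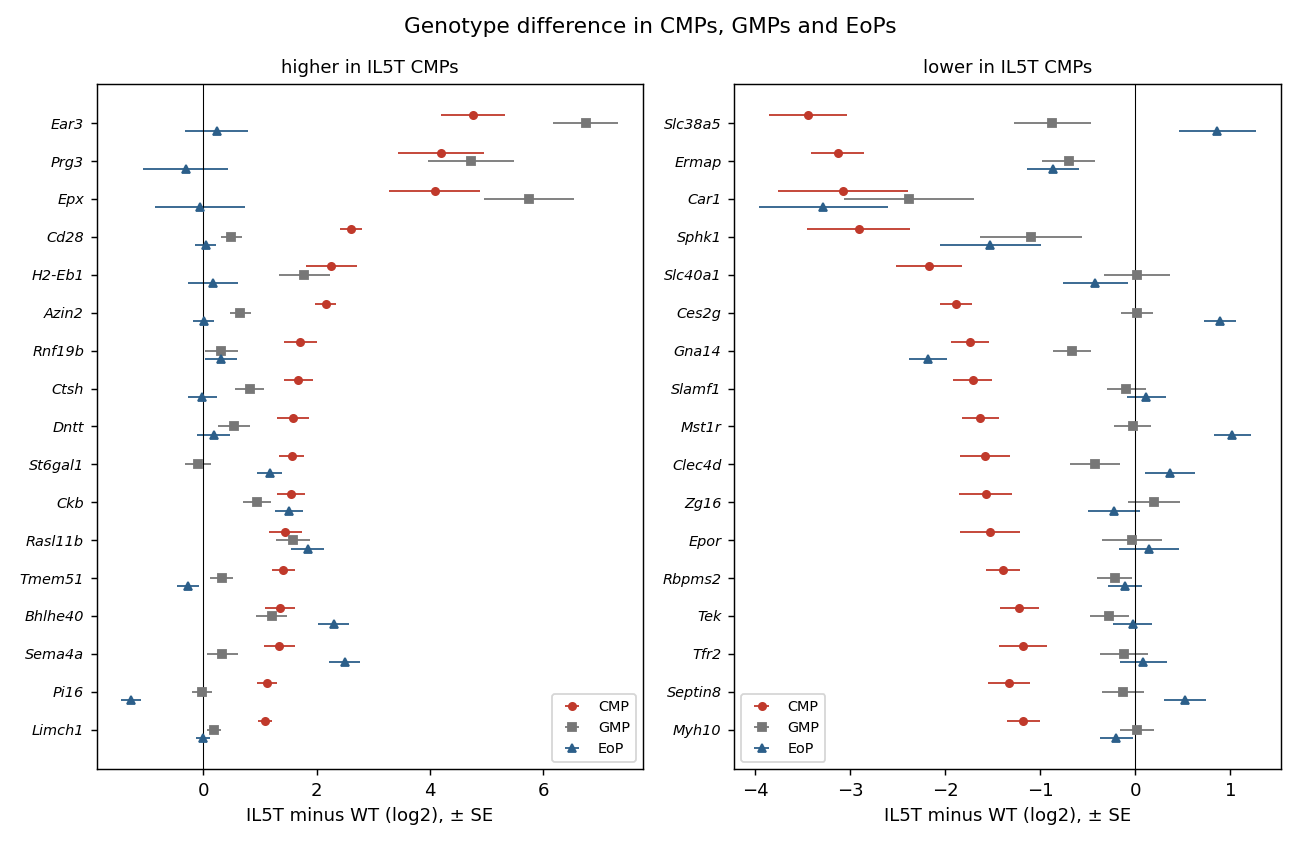
IL5T minus WT on the log2 scale with its SE (x axis) for 17 genes higher and 17 genes lower in IL5T CMPs (y axis), in CMPs, GMPs and EoPs. Ear3, Prg3 and Epx are high in CMPs and GMPs and near 0 in EoPs, and Slc38a5 is at -3.44 in CMPs and 0.86 in EoPs. Fitted values are drawn also for Cd28, Azin2, Limch1 and Sphk1, which were not above background in 1 genotype.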

How the data were processed

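Illumina MouseWG-6 arrays of 5 IL5T and 3 WT CMP samples were analysed within all 32 arrays of the series. The authors deposited the scanner intensity of each probe, not normalized between arrays, and a detection p-value against negative controls. The authors also deposited quantile-normalized log2 values made after normexp correction, which served as an alternative and lay within 0.163 of the values used here. The intensity was corrected with limma 3.58.1 (R 4.3.3) by normexp for each beadchip version, with controls inferred from the detection p-values and an offset of 16. The 24159 shared probes were quantile normalized, and lmFit and eBayes were fitted with group means and beadchip version. The study's methods also name a correction for beadchip version. The study reported fewer called probes between the genotypes in CMPs, GMPs and EoPs than were called here, and the reason was not tested. Adjusted p-values are Benjamini-Hochberg over all probes. Probes were named from the platform annotation with RefSeq symbols updated (21296 with 1 gene, 8 with several, 2855 with none). For the 36 lists the probe with the highest mean stood for a gene. Named genes were up to 30 called genes with the largest rise and 30 with the largest fall, fixed IL-5, lineage and sex genes, and up to 4 members of each list, and the text prints a selection. Members and lists were chosen with earlier results of these data known. The model was tested on simulated data. The small number of arrays limits precision. Alternatives covered background, normalization, filters, version term, arrays and pairing. Cd34 and Fcgr3 were not analysed here. Figures used matplotlib 3.10.9 and Python 3.11.15.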

Additional observations from a re-analysis of the deposited data

Results flagged for a closer look

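In 8 of 81 groups tested, each a called probe on the same 5 IL5T CMP arrays, 1 array stood apart from the other 4 by Dixon's test. Chance flags about 1 in 20 of independent, unselected groups. These groups share their arrays and were selected by the call, so the 8 cannot be set against that rate. All values here are log2 intensities on the version 2.0 scale. IL5T CMP replicate 4 was high for H2-Eb1 at 9.41, with the others from 7.72 to 8.09, and for Sema4a at 10.17, with the others from 9.11 to 9.32. IL5T CMP replicate 2, whose array name differs from its label, stood apart for Limch1 at 5.32, with the others from 5.84 to 6.04, for Mst1r at 5.34, with the others from 4.99 to 5.08, and for Septin8 at 8.43, with the others from 7.81 to 7.96. IL5T CMP replicate 3 stood apart for Vav1 at 11.85, with the others from 12.08 to 12.12, and for Hk1 at 8.90, with the others from 8.19 to 8.34. IL5T CMP replicate 5 stood apart for Mvd at 8.31, with the others from 7.55 to 7.73.

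The genotype difference itself differed between populations, by limma's test of the interaction with Benjamini-Hochberg adjustment over all probes at 0.05. For CMPs minus GMPs 23 probes were called. Among named genes the fitted log2 value was above 0 for Cd28 (2.11), Azin2 (1.503), St6gal1 (1.66), Pi16 (1.15) and Limch1 (0.90). It was below 0 for Slc38a5 (-2.57), Ermap (-2.43), Slc40a1 (-2.19), Ces2g (-1.90), Slamf1 (-1.62), Mst1r (-1.61), Zg16 (-1.77), Rbpms2 (-1.18), Myh10 (-1.20) and Muc13 (-1.31 and -1.13).

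For CMPs minus EoPs 835 probes were called. Among named genes the fitted log2 value was above 0 for Ear3 (4.53), Prg3 (4.50), Epx (4.14), Cd28 (2.57), Azin2 (2.15), Ctsh (1.70), Tmem51 (1.69), Ccnd1 (1.36), Nme7 (1.23), Klhl30 (1.00), Pi16 (2.40), Hlx (1.96), Limch1 (1.09), Cfp (1.104), Vav1 (0.58), Fosl2 (1.60) and Dok3 (1.40). It was below 0 for Slc38a5 (-4.31), Ermap (-2.26), Slc40a1 (-1.75), Atp1b2 (-1.86), Ces2g (-2.78), Mmp14 (-1.72), Slamf1 (-1.83), Mst1r (-2.65), Gdf3 (-1.76), Clec4d (-1.95), Epor (-1.67), Rbpms2 (-1.28), Parm1 (-1.30), Septin8 (-1.86), Tek (-1.19), Ptpn14 (-1.23), Tfr2 (-1.27), Myh10 (-0.98), Pde10a (-1.43), Trbv13-2 (-1.24), Slc14a1 (-0.87), Gata3 (-0.80), Hk1 (-1.46), Slc11a2 (-1.29), Muc13 (-1.08), Lgals9 (-0.97) and Dlk1 (-0.75).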

How the results depend on the processing

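The 167 calls between IL5T and WT CMPs became 159 with the deposited log2 values, 220 with an offset of 50, 202 without background correction, 126 over the 16 CMP and GMP arrays, 186 among probes detected on at least 3 CMP arrays, 169 with array weights and 158 with trended and robust moderation. They moved to 90 over 13 arrays (IL5T CMPs, WT CMPs and IL5T GMPs), 1 over the 8 CMP arrays, 298 without the version term (119 higher and 179 lower, against 83 and 84) and 88 at an adjusted p under 0.01. Scaling to a common median gave 217, 88 higher and 129 lower. Leaving out 1 array gave 114 (without WT CMP replicate 1) to 246 (without WT CMP replicate 2), and leaving out both IL5T CMP replicate 4 and WT CMP replicate 2, chosen after the data were seen, 140. For CMPs minus GMPs, 23 became 15 with the deposited values, 44 with an offset of 50, 68 with median scaling, 3 over 16 arrays, 8 without the version term, 61 with array weights and 10 at 0.01, and 14 to 53 with 1 array left out. For CMPs minus EoPs, 835 became 314 at 0.01 and 510 to 908 with 1 array left out. Within the version 2.0 run, 84 became 0 over the 5 CMP arrays alone and 44 to 169 with 1 array left out. That fit of 5 arrays with limma had 960 probes at an unadjusted p under 0.05, less than 5% of all 24159. Replicate numbers did not pair the samples (same-number correlations of 0.21, -0.10 and -0.41), and with them as a replicate block 10 probes were called, 13 for CMPs minus GMPs and 89 for CMPs minus EoPs. Of 82 called probes of named genes, 46 kept their call without each array in turn, and no direction turned in any setting. The cause of these changes was not tested, except that fewer arrays leave fewer degrees of freedom. With 5 and 3 arrays, and pools of unstated overlap, p-values measure only the spread between arrays.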
